A study of Homo sapiens with 10 samples.

Results

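FRMD3 and the band 4.1 family genes were measured on Agilent whole-genome expression arrays after miR-1225-3p was introduced into MEG-01, a human line derived from a megakaryoblastic leukemia. The family was taken as 10 genes, namely FRMD3, FRMD4A, FRMD4B, FRMD8, EPB41, EPB41L1, EPB41L2, EPB41L3, EPB41L4A and EPB41L5. Every probe whose RefSeq accession carries 1 of these symbols was used, which gave 10 genes of 19102 with a symbol and 18 probes of 42405 on the array, and each probe was followed separately. In 5 cultures the cells received 200 nM of pre-miR-1225-3p, a double-stranded precursor, by nucleofection, and in 5 they received the same dose of a scrambled negative control precursor. Total RNA was taken 24 h later from all 10 cultures, each labelled with Cy3 and hybridized to 1 array, and the 5 experiments of a group were performed at the same time. A source label of the scrambled cells reads no treatment, but their titles and the study's methods describe transfection with the control precursor. The question was which transcripts change in a platelet-related cell when this miRNA is raised, and the model is a single leukemia line with a precursor given at 1 dose and 1 time.

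The introduced miRNA is shown first because it is the only designed difference between the groups. Its mature sequence, credited to RefSeq on GRCh38.p14 (chr16:2090195-2090216, minus strand, inside PKD1), is printed 5′ to 3′ with the seed, bases 2 to 8, in capitals.
hsa-miR-1225-3p: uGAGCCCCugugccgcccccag
No other mature miRNA in the RefSeq table had this seed. Target sites in the family's transcripts were not analysed here.

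Band 4.1 proteins carry a FERM domain, a fold that binds the cytoplasmic tails of membrane proteins. The founding member, encoded by EPB41, tightens the junctions between spectrin and actin under the red cell membrane and ties them to glycophorin C, and its loss causes hereditary elliptocytosis. Related proteins hold receptors and adhesion molecules in place in other cells, and the FRMD proteins share the FERM domain.

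Signals are log2 values after normalization between arrays, and a difference of 1 means a doubling. A probe was called when its adjusted p from limma, corrected over all kept probes, was under 0.05. A probe was kept, and thereby tested, when 3 or more of the 5 arrays in 1 group or the other showed it well above background. This left 10 of the 18 family probes, from 8 of the 10 genes, and FRMD4A and EPB41L3 had none. In these bulk samples fewer cells with a transcript and less RNA per cell cannot be told apart.

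The replicates of the miR-1225-3p group were not alike. On the first principal component of all kept probes, miR-1225-3p replicates 1 to 4 lay between -146.9 and -57.15, whereas replicate 5 lay at 63.83, inside the range of the scrambled arrays (57.13 to 82.89). Over all kept probes, 65.8% of the values of replicate 5 fell between the lowest and highest scrambled value, compared with 21.3% to 30.4% in the other miR-1225-3p arrays. Among the 10 kept family probes this count was 8 for replicate 5 and 2 to 4 for the others. Values without that array are given beside those from all arrays for kept family probes, named partners and called markers. Of the megakaryocyte markers, ITGA2B, ITGB3, PPBP and GATA1 were well above background on all 10 arrays and PF4 on none.

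Of the 10 kept family probes, 2 were called higher in miR-1225-3p cells and 0 were called lower by limma, compared with 35.0% of all 20648 kept probes called, 16.3% higher and 18.7% lower. The called probes belonged to FRMD3 and EPB41L1. At an unadjusted p under 0.05, EPB41L5 was the 1 kept family probe lower. The median log2 fold change of the 10 probes was 0.19, with 5 above 0, whereas the median over all kept probes was -0.09 with 45.2% above 0. A single family probe, of FRMD3, had groups that did not overlap, in a background of 12.6% of all kept probes (7.78% with miR-1225-3p higher). When miR-1225-3p replicate 5 was left out, 3 family probes were called higher and 1 lower, with 55.8% of all kept probes called, and 2 family probes did not overlap between groups, with 46.2% of all kept probes. By the brightest kept probe of each gene, 2 of 8 family genes were called, FRMD3 and EPB41L1, compared with 34.8% of all genes, and when p-values were adjusted over 1 probe per gene EPB41L1 missed the threshold (adjusted p = 0.0502 from limma). Here and below, shares of all genes also count each accession without a symbol as a gene. With 10 probes, these counts are too few to set the family's share apart from the background. Under array weights 5 family probes were called higher and 4 lower, with 14673 of all 20648 kept probes called.

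**Figure D1:**
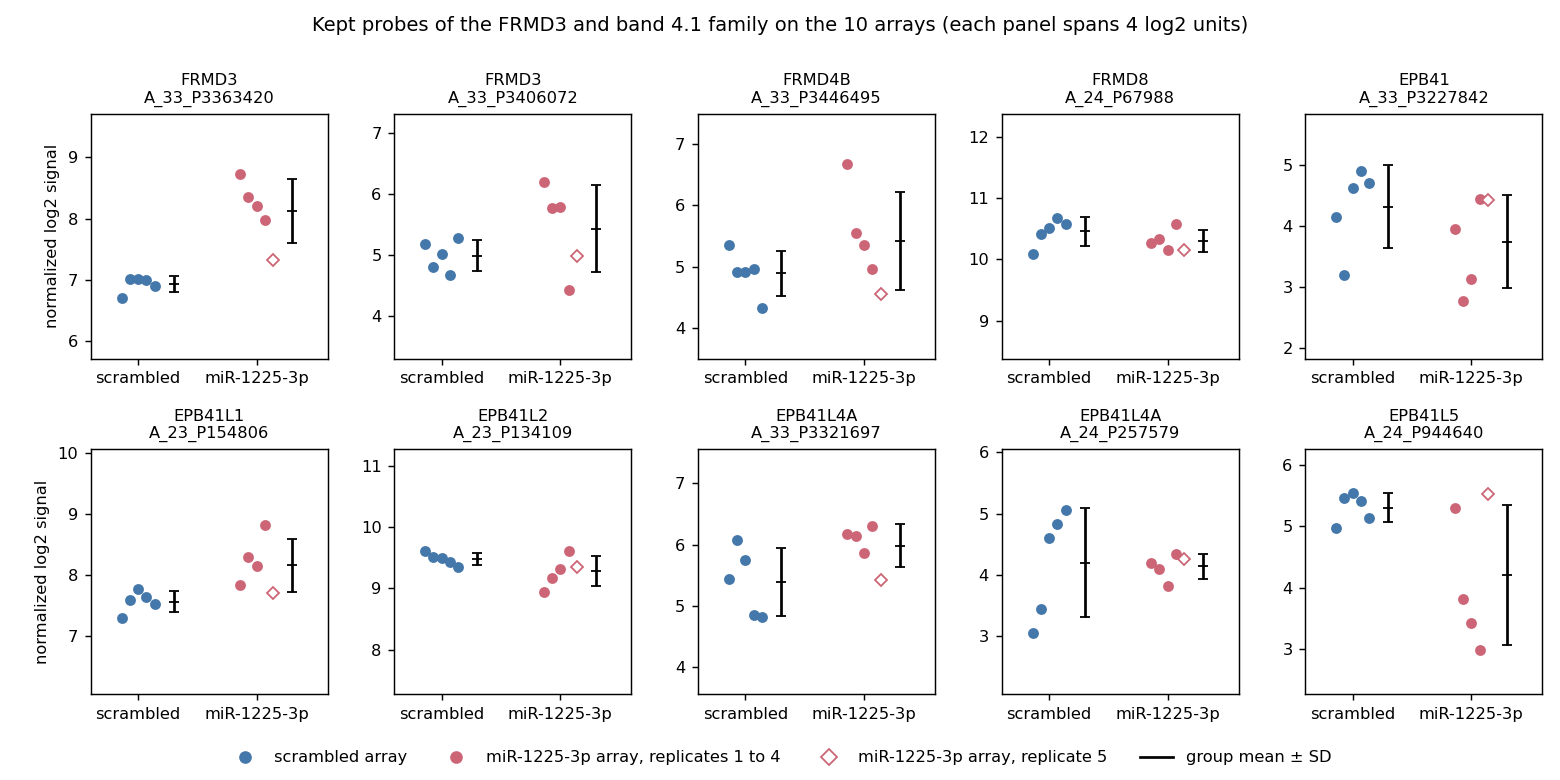
Normalized log2 signal (vertical axis, each panel spanning 4 log2 units) of the 10 kept family probes on the 5 scrambled arrays (blue) and 5 miR-1225-3p arrays (red, with replicate 5 as an open diamond); black bars give the group mean ± SD. The upper left panel, FRMD3 probe A_33_P3363420, is the 1 panel in which every miR-1225-3p array lies above every scrambled array.

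FRMD3 encodes a FERM domain protein whose gene has been studied in diabetic kidney disease. The brightest kept FRMD3 probe, A_33_P3363420, read 8.73, 8.36, 8.22, 7.99 and 7.32 on miR-1225-3p replicates 1 to 5. On scrambled replicates 1 to 5 it read 6.71, 7.01, 7.01, 7.00 and 6.90. All 5 miR-1225-3p arrays exceeded all 5 scrambled arrays, and replicate 5 was the closest to them. The means were 8.12 ± 0.523 (SD, n = 5) and 6.93 ± 0.131 (SD, n = 5), a rise of 1.19 on the log2 scale (SE 0.235, 95% interval 0.67 to 1.71), or 2.28-fold, with an adjusted p of 0.0146 from limma. The exact two-sided permutation test gave p = 0.00794, the smallest that 5 against 5 arrays allow. FRMD3 is among the genes that the study picked from changes on these same arrays. The study kept those that also differed in its platelet data and were among its predicted targets. The call here is therefore not independent evidence. The study lists a quantitative PCR assay for FRMD3. FRMD3 is not among the genes that it names as differing between transfected and scrambled cells by that method.

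The array that stood apart, miR-1225-3p replicate 5, held the lowest value of the brightest FRMD3 probe in its group. Leaving it out could therefore only enlarge the FRMD3 rise. Without miR-1225-3p replicate 5 the rise was 1.39 (SE 0.159, adjusted p = 0.000162 from limma), in a setting where 55.8% of all kept probes were called. Leaving out each array in turn gave 1.04 to 1.39, every time with an adjusted p under 0.05. The arrays lay on 2 slides that each held both groups. Within slide 1 (miR-1225-3p replicates 1 and 2, scrambled replicates 1, 3 and 5) the log2 fold change was 1.67 (adjusted p = 0.0134 from limma), and within slide 2, which held replicate 5, it was 0.83 (adjusted p = 0.501 from limma). Without normalization between arrays the value was 0.90 and the call was lost (adjusted p = 0.208 from limma).

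Other FRMD3 probes showed less. Probe A_33_P3406072 is assigned to the same RefSeq transcript and was well above background on 4 arrays of each group. It read 6.20, 5.76, 5.79, 4.43 and 4.99 on the miR-1225-3p arrays and 5.19, 4.81, 5.02, 4.68 and 5.28 on the scrambled arrays. Replicates 1, 2 and 3 of miR-1225-3p lay above the scrambled range, replicate 4 below it and replicate 5 inside it. The log2 fold change was 0.44 (SE 0.312, 95% interval -0.25 to 1.13, adjusted p = 0.276 from limma), and 0.55 without replicate 5 (adjusted p = 0.177 from limma). In 2 of 24 alternatives this probe was called higher. These were within slide 1 (0.82, adjusted p = 0.0431 from limma) and with array weights (0.86, adjusted p = 0.0012 from limma). The third probe, A_23_P135132, was well above background on 1 array alone, miR-1225-3p replicate 5, where it read 5.88 against 2.62 to 3.47 on the other 9 arrays. That array is the one on which the brightest FRMD3 probe was lowest in its group.

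The change of the 2 kept FRMD3 probes differed. Their difference within an array, brightest minus the other, was 2.53, 2.59, 2.43, 3.55 and 2.32 in miR-1225-3p cells and 1.52, 2.20, 2.00, 2.32 and 1.63 in scrambled cells. Every miR-1225-3p array had a larger difference than every scrambled array, although miR-1225-3p replicate 5 and scrambled replicate 4 were nearly equal. The means were 2.69 ± 0.495 (SD, n = 5) and 1.93 ± 0.351 (SD, n = 5), and they differed by 0.75 (exact two-sided permutation p = 0.00794, 0.0159 after adjustment over the 2 probe pairs tested). FRMD3 was picked by the study with these same arrays, so this test is not independent of that choice. The other probe is dim, and the largest difference, 3.55 on miR-1225-3p replicate 4, fell where that probe read its lowest, 4.43. A difference between probes of a gene shows unequal change of the 2 signals and does not say which of them follows the FRMD3 transcript. Averaging both kept probes gave a log2 fold change of 0.82 for the gene (adjusted p = 0.0324 from limma).

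**Figure D2:**
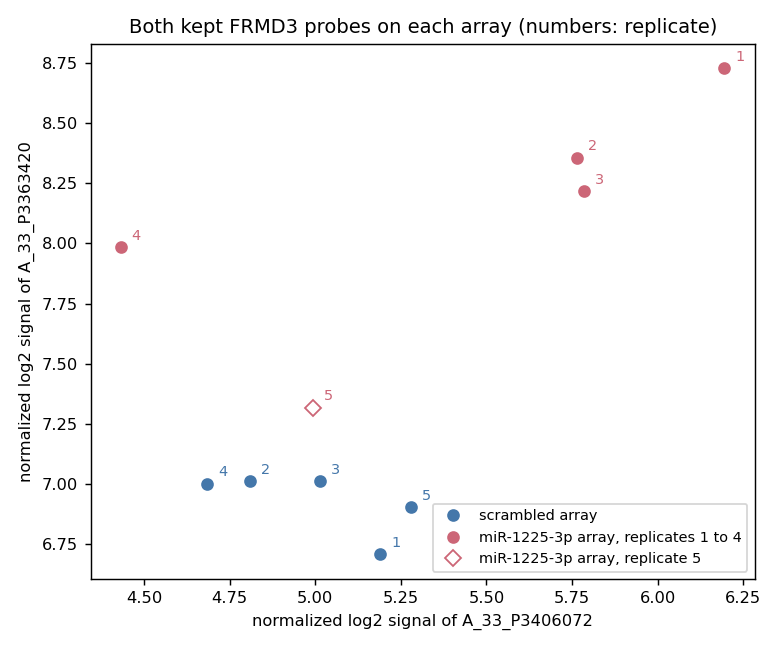
Normalized log2 signal of FRMD3 probe A_33_P3363420 (vertical axis) against that of FRMD3 probe A_33_P3406072 (horizontal axis) on each of the 10 arrays, with the replicate number beside each point. The vertical axis separates the groups completely, with 7.32 the lowest miR-1225-3p value and 7.01 the highest scrambled value, while on the horizontal axis miR-1225-3p replicates 4 and 5 lie at 4.43 and 4.99, below some scrambled arrays.

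FRMD4A and FRMD4B encode scaffolds that bind cytohesins, exchange factors for ARF GTPases. Both FRMD4A probes were not well above background on any of the 10 arrays. The FRMD4B probe read 6.68, 5.55, 5.35, 4.96 and 4.56 on the miR-1225-3p arrays and 5.36, 4.91, 4.91, 4.96 and 4.32 on the scrambled arrays. Only miR-1225-3p replicates 1 and 2 exceeded the scrambled range. Its log2 fold change was 0.53 (SE 0.362, 95% interval -0.27 to 1.33, adjusted p = 0.256 from limma), and 0.75 without miR-1225-3p replicate 5 (adjusted p = 0.0875 from limma).

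FRMD8 encodes a partner of the iRhom proteins that keeps the shedding protease ADAM17 at the cell surface. Probe A_24_P67988 was well above background on all 10 arrays and ranged from 10.15 to 10.58 in miR-1225-3p cells and from 10.08 to 10.68 in scrambled cells, so that all 5 miR-1225-3p arrays fell inside the scrambled range. The log2 fold change was -0.15 (SE 0.151, 95% interval -0.49 to 0.18, adjusted p = 0.425 from limma). It was -0.12 when miR-1225-3p replicate 5 was left out, and subtracting the 75th percentile of each array instead gave 0.27. The interval does not reach a doubling or a halving. The second FRMD8 probe, A_33_P3603812, was not kept and read 8.54 on miR-1225-3p replicate 1 against 2.77 to 5.01 elsewhere.

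EPB41, the red cell band 4.1 gene, gave little signal. Probe A_33_P3227842 was not well above background on any miR-1225-3p array and was so on 3 scrambled arrays. It read 3.95, 2.78, 3.13, 4.43 and 4.42 in miR-1225-3p cells and 4.15, 3.20, 4.61, 4.89 and 4.70 in scrambled cells, and the groups overlapped. The probe entered the test only through its scrambled arrays, and the miR-1225-3p values lie at background. A difference was not detectable (log2 fold change -0.57, SE 0.412, adjusted p = 0.285 from limma, and -0.74 without miR-1225-3p replicate 5, adjusted p = 0.166 from limma). The second EPB41 probe, A_23_P351, belongs to another transcript and was well above background on 1 array of each group, ranging from 3.82 to 4.58 over all 10.

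EPB41L1 encodes the neuronal form of the family. Probe A_23_P154806 read 7.83, 8.29, 8.14, 8.82 and 7.71 on the miR-1225-3p arrays and 7.30, 7.60, 7.77, 7.64 and 7.54 on the scrambled arrays. Replicate 5 of miR-1225-3p was the only one below the highest scrambled array. The rise was 0.59 (SE 0.21, 95% interval 0.13 to 1.06), or 1.51-fold, with an adjusted p of 0.0499 from limma, just inside the threshold. The exact two-sided permutation test gave p = 0.0159. Without miR-1225-3p replicate 5 the groups no longer overlapped and the rise was 0.70 (adjusted p = 0.0132 from limma). Leaving out any one of the other 9 arrays ended the call, as did 18 of the 25 alternatives in all, with log2 fold changes from 0.34 to 0.76 and adjusted p-values from 0.000483 to 0.648. The other EPB41L1 probes were not kept, A_24_P185709 being well above background on no array and A_33_P3228510 on 1 scrambled array.

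EPB41L2 encodes the widely expressed form, and its probe was well above background on all 10 arrays. It read 8.94, 9.17, 9.32, 9.61 and 9.34 in miR-1225-3p cells and 9.61, 9.51, 9.49, 9.42 and 9.34 in scrambled cells. Replicates 1, 2 and 3 of miR-1225-3p lay below the lowest scrambled array, and replicate 5 was level with it. The log2 fold change was -0.20 (SE 0.145, 95% interval -0.52 to 0.12, adjusted p = 0.283 from limma). It was -0.22 when miR-1225-3p replicate 5 was left out. Subtracting the 75th percentile instead gave 0.14. EPB41L3, a family member lost in several tumours, had 1 probe, which was well above background on 1 scrambled array and on no miR-1225-3p array.

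EPB41L4A and EPB41L5 are further relatives, the second known for its part in cell shape changes of epithelia in development. EPB41L4A probe A_33_P3321697 read 6.17, 6.14, 5.87, 6.30 and 5.42 on the miR-1225-3p arrays and 5.44, 6.07, 5.75, 4.85 and 4.82 on the scrambled arrays. Replicate 5 of miR-1225-3p lay inside the scrambled range and replicates 1, 2 and 4 above it. The log2 fold change was 0.59 (SE 0.275, 95% interval -0.02 to 1.21, adjusted p = 0.109 from limma), and without miR-1225-3p replicate 5 it was 0.73 and was called (adjusted p = 0.0412 from limma). The second EPB41L4A probe, A_24_P257579, was not well above background on any miR-1225-3p array and had a log2 fold change of -0.06 (SE 0.373, adjusted p = 0.907 from limma), or -0.09 without replicate 5. The changes of the 2 EPB41L4A probes differed by 0.65, which was not past the threshold (exact two-sided permutation p = 0.31).

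EPB41L5 had the lowest log2 fold change of the kept family probes. Its probe read 5.30, 3.82, 3.42, 2.98 and 5.53 on the miR-1225-3p arrays and 4.98, 5.47, 5.55, 5.41 and 5.13 on the scrambled arrays. Replicates 2, 3 and 4 of miR-1225-3p lay below every scrambled array, while replicates 1 and 5 lay among them. It was well above background on 2 miR-1225-3p and 3 scrambled arrays, so that it entered the test only through the scrambled group, and its lowest readings lie near background. The log2 fold change was -1.10 (SE 0.47, 95% interval -2.14 to -0.05, adjusted p = 0.0882 from limma). Without miR-1225-3p replicate 5 it was -1.43 and was called lower (adjusted p = 0.0152 from limma). With normexp background correction and an offset of 50 it was -0.25 (adjusted p = 0.179 from limma). The offset by itself makes log2 fold changes of dim probes smaller, here and wherever normexp values are given below. The size of the difference therefore rests on how low signals were treated. The same correction brought the second FRMD3 probe to 0.23, FRMD4B to 0.25, EPB41 to -0.04 and EPB41L4A probe A_33_P3321697 to 0.16, none of them called.

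**Figure D3:**
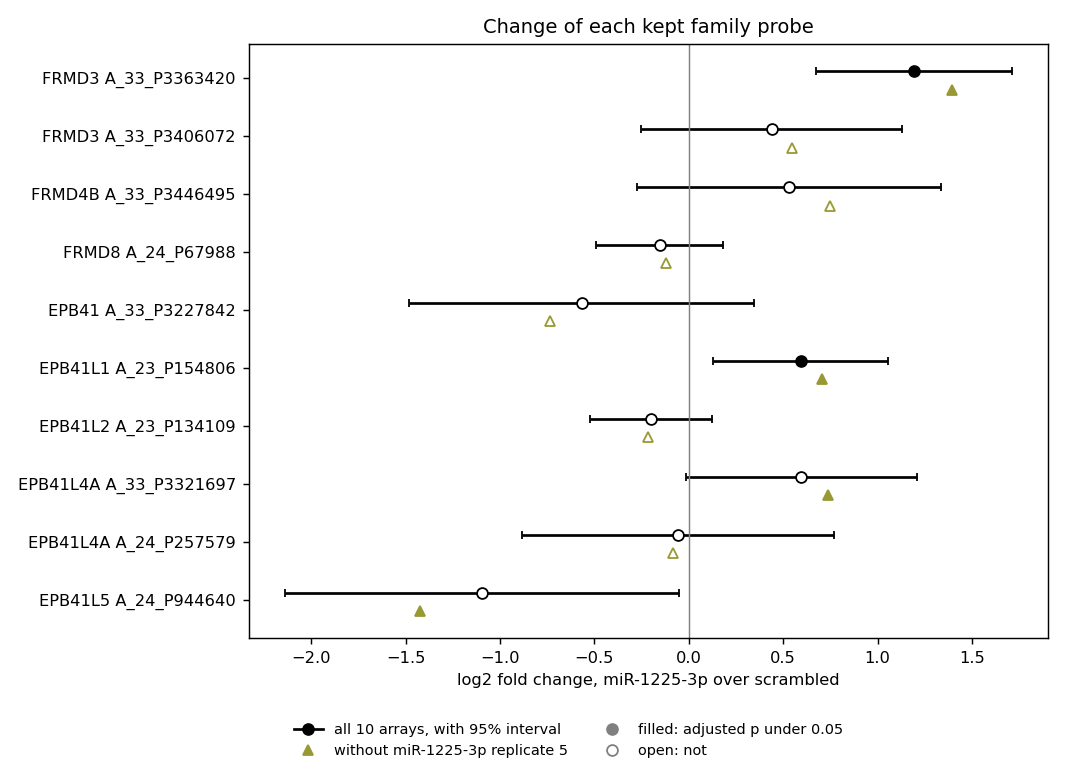
Log2 fold change of miR-1225-3p over scrambled cells (horizontal axis) for the 10 kept family probes, with 95% intervals over all 10 arrays (circles) and the value without miR-1225-3p replicate 5 (triangles); filled symbols had an adjusted p under 0.05 from limma. FRMD3 probe A_33_P3363420 at 1.19 and EPB41L1 at 0.59 are filled with all arrays, and EPB41L4A probe A_33_P3321697 at 0.73 and EPB41L5 at -1.43 are filled only without replicate 5.

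The spread within groups also differed. In 7 of the 10 kept family probes the SD was larger in miR-1225-3p than in scrambled cells, near the share over all kept probes (75.9%). The brightest FRMD3 probe had an SD of 0.523 against 0.131. Scrambled arrays were the more variable for EPB41L4A probe A_24_P257579 (SD 0.89 against 0.203).

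Profiles across the 10 arrays were compared with that of the brightest FRMD3 probe, as a description without a test, since all arrays and their group difference are shared. Among 8887 other genes well above background on all 10 arrays, the highest Pearson correlations were with GSTO1 (r = 0.99), a glutathione transferase, MCM6 (r = 0.99), a subunit of the replicative helicase, KARS1 (r = 0.99), lysyl-tRNA synthetase, AGPS (r = 0.99), an enzyme of ether lipid synthesis, and SLC25A24 (r = 0.98), a mitochondrial carrier. After group means were removed these stayed between 0.944 and 0.971. The other FRMD3 probe reached r = 0.64. In the rest of the family the values ran from 0.72 for FRMD4B to -0.70 for EPB41L2, so the family did not share 1 profile.

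The genes around band 4.1 in the spectrin-actin skeleton were counted by the brightest kept probe of each gene. Of 23 genes, 20 were tested, and 6 were called higher, 3 lower and 11 not, compared with 16.8% and 18.0% of all 17379 genes (accessions without a symbol included). The median log2 fold change was -0.29 against -0.06 over all genes. Without miR-1225-3p replicate 5 the counts were 6 higher and 9 lower, with 55.3% of all genes called in that setting, 26.3% higher and 29.0% lower.

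The spectrin chains, the long filaments that band 4.1 fastens to actin, changed in opposite directions. SPTB, the beta chain of the red cell, rose by 0.90 (SE 0.234, adjusted p = 0.0215 from limma; 1.06 without miR-1225-3p replicate 5), a call that was lost on removal of scrambled replicate 3 or 4, or of replicate 2 or 3 in the miR-1225-3p group. SPTAN1, the alpha chain found in most nucleated cells, fell by 1.68 on the log2 scale (SE 0.347, adjusted p = 0.0146 from limma), and its log2 fold change was -1.98 without that array. Its second kept probe had -0.99 (adjusted p = 0.0174 from limma; -1.14 without that array), but it entered the test only through the scrambled group and was not called with normexp (-0.27, adjusted p = 0.0736 from limma). SPTBN1, a beta chain of nucleated cells, rose by 0.90 (SE 0.306, adjusted p = 0.044 from limma), a call that stayed only when the array left out was miR-1225-3p replicate 5 (1.17). With normexp SPTBN1 was at 0.44 and not called (adjusted p = 0.0577 from limma), while SPTB at 0.57 and the brightest SPTAN1 probe at -1.11 were smaller and still called.

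Of ADD1, GYPC and ANK1, whose proteins tie or cap this network, only ADD1 was called with all arrays. ADD1, alpha adducin, which seats spectrin on actin ends, fell by 1.58 (SE 0.267, adjusted p = 0.0144 from limma), with 4.31 to 5.90 in miR-1225-3p cells all below 6.52 to 6.97 in scrambled cells. Its log2 fold change was -1.78 without miR-1225-3p replicate 5 and -0.58 with normexp (adjusted p = 0.0103 from limma). GYPC, the glycophorin that binds band 4.1, had a log2 fold change of -0.94 (SE 0.339, adjusted p = 0.0528 from limma) and was called lower without miR-1225-3p replicate 5 (-1.25, adjusted p = 0.00137 from limma). ANK1, the ankyrin that couples spectrin to the anion exchanger, had -0.96 (SE 0.468, adjusted p = 0.126 from limma). Its value without replicate 5 was -1.27 and was called (adjusted p = 0.028 from limma). A second kept ANK1 probe had -1.78 (adjusted p = 0.0587 from limma) and -0.44 with normexp (adjusted p = 0.227 from limma). That probe entered the test only through the scrambled group.

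Probe pairs in the same complex disagreed in direction for 2 genes. MPP1, the membrane scaffold that completes the complex of band 4.1 with glycophorin C, rose by 0.78 at its brightest probe (SE 0.172, adjusted p = 0.0158 from limma) and fell by 0.70 at the other kept probe (SE 0.207, adjusted p = 0.0304 from limma), which is assigned to another transcript. Without replicate 5 the values were 0.85 and -0.86. The second of these calls ended with normexp (-0.29, adjusted p = 0.078 from limma) and was kept, among single arrays left out, only without miR-1225-3p replicate 4 or 5. GYPB had 1.06 at one probe (adjusted p = 0.0327 from limma) and -1.18 at another (adjusted p = 0.0192 from limma), and GYPB belongs to a multigene family whose near-identical members the probes may not separate. The values were 1.34 and -1.44 when miR-1225-3p replicate 5 was left out, and with normexp the second was -0.52 and still called. For the brighter GYPB probe the call was kept only without miR-1225-3p replicate 5 or scrambled replicate 1, and for the other it ended without miR-1225-3p replicate 3.

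Of 23 other genes with a FERM domain, 16 were tested, and 3 were called higher, 3 lower and 10 not, with a median of -0.22. These 6 of 16 stand beside 34.8% of all genes called. Without miR-1225-3p replicate 5 the counts were 4 and 5, with 55.3% of all genes called. FERMT3, the kindlin of blood cells that activates platelet integrins, fell by 2.08 (SE 0.606, adjusted p = 0.0285 from limma), and stood at -2.64 when miR-1225-3p replicate 5 was left out. Its call was kept only without scrambled replicate 2, or without replicate 1 or 5 in the miR-1225-3p group. Among FERM-bearing tyrosine phosphatases PTPN13 rose by 0.99 (SE 0.26, adjusted p = 0.0219 from limma; 1.20 without miR-1225-3p replicate 5), losing its call with normexp (0.30, adjusted p = 0.0544 from limma) and on removal of scrambled replicate 4, or of replicate 2 or 3 in the miR-1225-3p group. PTPN4 and PTPN14 each entered the test only through the group where they were high, so their sizes are measured against near-background arrays. PTPN4, well above background on 4 miR-1225-3p arrays and 1 scrambled array, was called higher at 1.74 (adjusted p = 0.0163 from limma), with 2.01 without miR-1225-3p replicate 5 and 0.43 with normexp, both called. PTPN14, well above background on 1 miR-1225-3p and 3 scrambled arrays, was called lower at -0.93 (adjusted p = 0.0447 from limma), a call that ended with normexp (-0.16, adjusted p = 0.292 from limma) and with any array left out other than miR-1225-3p replicate 1, among them replicate 5 (-0.87, adjusted p = 0.0562 from limma).

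**Figure D4:**
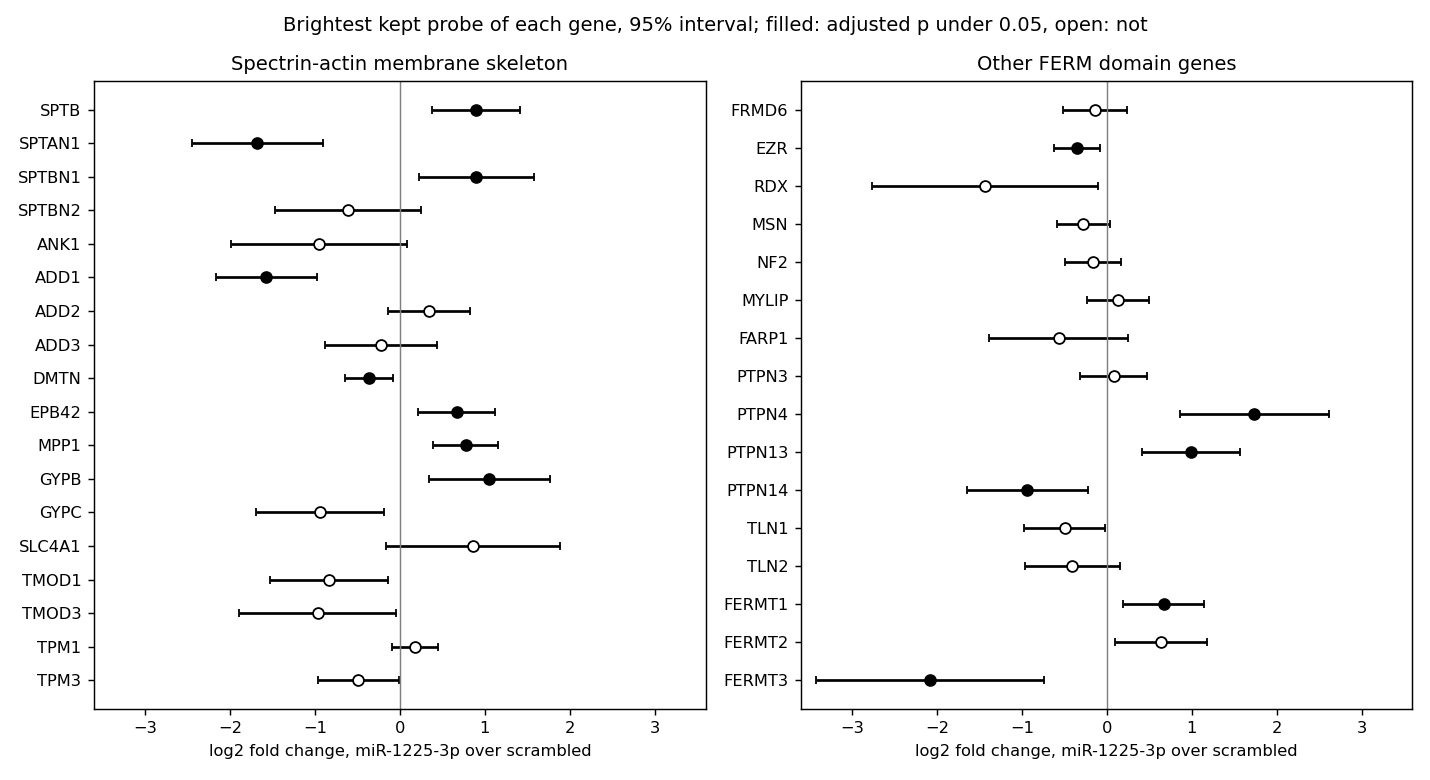
Log2 fold change of miR-1225-3p over scrambled cells (horizontal axis) with 95% intervals for the brightest kept probe of 18 of the 20 spectrin-actin skeleton genes tested (left) and 16 other FERM domain genes (right); filled points had an adjusted p under 0.05 from limma. Filled points lie on both sides of 0 in both panels, from GYPB at 1.06 to SPTAN1 at -1.68 on the left and from PTPN4 at 1.74 to FERMT3 at -2.08 on the right.

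Markers of lineage were read beside these results. Of the 6 megakaryocyte markers tested, 5 had a log2 fold change below 0, with a median of -1.12, and 1 was called, beside 18.0% of all genes called lower. ITGA2B, the megakaryocyte integrin alpha chain, was the called one at -1.39 (SE 0.472, adjusted p = 0.0439 from limma), and GP1BA was at -1.24, GP9 at -1.20, GATA1 at -1.04, ITGB3 at -0.46 and PPBP at 0.17. GP1BA, well above background on 1 miR-1225-3p and 3 scrambled arrays, entered the test only through the group where it was high. Its value counts among the 5 and in the median. Leaving out miR-1225-3p replicate 5 gave a median of -1.45 and 4 calls, all lower and GP1BA among them, with ITGA2B at -1.85. In that setting 55.3% of all genes were called, and 29.0% of all genes were called lower. None of the 5 erythroid markers tested was called with all arrays, of which SLC4A1 is also a spectrin skeleton gene. CD79A, a B cell marker, was well above background on all 10 arrays, where its difference was -1.47 on the log2 scale (adjusted p = 0.0625 from limma), and at -1.85 it was called without miR-1225-3p replicate 5 (adjusted p = 0.0118 from limma), while MS4A1 was well above background on none. Of the T cell markers CD3D was well above background on all 10 arrays at -0.13 and CD2 on none. CD3E, well above background on 3 miR-1225-3p arrays and 1 scrambled array, entered the test only through the group where it was high, and was called higher at 1.96 against near-background values (adjusted p = 0.0328 from limma; 2.33 without replicate 5). No monocyte or fibroblast marker tested was called. The monocyte markers CD14 and CSF1R were well above background on all 10 arrays, and the fibroblast marker COL1A1 on 3 arrays of each group. COL1A2 and PDGFRB were well above background on no array. The part of these markers in the family's values was not tested.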

How the data were processed

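The authors deposited 1 Agilent Feature Extraction 10.7.3.1 output per sample (1 colour, 8x60K design, hg19) and a table of log2 values that they had normalized, for 29271 probes, with column medians between 4.77 and 5.15 and unstated centring. The study's methods name another version of that software. In the scanner output the processed signal is an intensity that the software had background-subtracted, as deposited. Per the file headers, flags mark outlier spots, spots well above background and saturated spots (0 here).

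From these values, 4259 control spots were left out, outlier spots were set missing, the processed signals were brought to log2 and normalized between arrays by cyclic loess (3 iterations, limma 3.58.1, R 4.3.3) and spots of a probe were averaged. A probe counted as well above background on an array when at least 50% of its spots were flagged so, and was kept as described above, which left 20648 of 42405 probes. Accessions of 24910 probes matched a symbol in the RefSeq table of GRCh38.p14. In counts over all genes, an accession without a symbol stood as a gene of its own. No gene coordinates are given since the builds differ. The share of spots other than control flagged well above background was 41.95% to 61.18% per array, and the number of arrays limits the precision.

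Groups came from the sample titles. All kept probes were fitted together with limma (lmFit, eBayes) and Benjamini-Hochberg adjustment at 0.05, without a block. Exact permutation tests over arrays were two-sided. The fit was tested on simulated data. Named were all family probes, up to 4 called genes per list with the largest change, 8 fixed partners of band 4.1, and the 5 genes most correlated with FRMD3. The members and lists were chosen with earlier results of these data known. Replicate numbers are not known to pair the samples, and correlations of deviations over 5 replicate numbers (-0.402 to 0.0583) cannot settle it. Normalization, background correction, source, filter, outlier spots, test, weights, slide, replicate block and each array were varied. Some genes that the naming rule covers are not reported here. The study's platelet data were not analysed here.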

Additional observations from a re-analysis of the deposited data

Results flagged for a closer look

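Of 60 groups of 5 arrays examined for family probes and named partners, 5 held 1 array far from the other 4, where chance alone gives about 3. The FRMD3 probe A_23_P135132 read 5.88 on miR-1225-3p replicate 5, far above the rest of its group. The FRMD4A probe A_33_P3386558 read 3.37 on the same array, although it was not well above background there. MPP1 probe A_23_P171296 read 12.8 on that array, below the other miR-1225-3p arrays. SPTAN1 probe A_23_P20832 read 8.09 on it, above the other miR-1225-3p arrays. ADD1 read 6.97 on scrambled replicate 2, above the other scrambled arrays. The cause of these single values was not tested.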

How the results depend on the processing

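The log2 fold change of the brightest FRMD3 probe kept its call in 22 of 25 alternatives. It fell short without normalization (0.90), within slide 2 (0.83) and under a replicate block (1.19, adjusted p = 0.0503 from limma). Under that block the difference between FRMD3 probes was 0.75 (exact permutation p = 0.0625, the smallest that 5 pairs allow), and 0 probes of any kind were called by limma, among them 0 family probes higher, 0 spectrin skeleton genes and 0 other FERM genes, with 8994 probes at an unadjusted p under 0.05. The replicate numbers are not known to pair the samples. Leaving out each array gave a log2 fold change of 1.04 to 1.39 for FRMD3.

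The number of family probes called higher (2) was 0 without normalization and within slide 2, 1 with normexp, without the filter on dim probes, with outlier spots kept, by the methods' t-test and with the slide as a block, 5 under array weights and 1 to 3 with each array left out. The number lower (0) was 4 with array weights and 0 to 1 with each array left out, the 1 being without miR-1225-3p replicate 5. By the mean of kept probes 2 family genes were called, against 1 by the brightest probe, p-values being adjusted over 1 value per gene. All probes called (7225) were 1224 without normalization, 4014 without the filter, 14673 with array weights, 0 within slide 2 (1395 at an unadjusted p under 0.05) and 2280 to 11524 with each array left out. Spectrin skeleton genes called (9) were 3, 5, 16 and 0 in the same order and 4 to 15. Other FERM genes called (6) were 0, 3, 11 and 0, 1 to 9, and 3 each by the methods' t-test and when all 10 arrays had to show a probe well above background.

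Values that changed sign were those of the second FRMD3 probe without normalization (-0.087), FRMD8 (0.27) and EPB41L2 (0.14) with the 75th percentile subtracted, and EPB41L4A probe A_24_P257579 with quantile normalization (0.23) and with an array left out (-0.34 to 0.16). The scaling moved the median of all kept probes from -0.09 to 0.11 with the 75th percentile, 0.04 with quantile and -0.31 without normalization, and the share of calls that were lower from 53.6% to 38.9%, 42.6% and 85.8%. The cause was not tested. Dim probes such as those of EPB41 and EPB41L5 are limited by their signal over background.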
